A study of Homo sapiens with 12 samples.

Results

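The genes described here are 44 members of the interferon response, from the interferon-induced membrane proteins to the class I antigen presentation machinery, measured in HEK293 cells, a human embryonic kidney line. They were chosen by gene symbol, with earlier results of these data known. Their shares, set beside those of all features, are thus a description and not a test. A probe of the array was kept where its signal stood above the negative controls, at a detection p under 0.05, on at least 3 of the 12 arrays. Of the 44 members 42 had a probe, and 35 had a kept probe and were tested, among 13228 features in all. PSMB9 and STAT2 were not analysed here. OAS2, OASL, MX2, PSMB8 and XAF1 were detected on 0 arrays, GBP1 on 1 and TRIM22 on 2, so these 7 were not tested. The members IFITM2 and IFITM3, which mark the group, were detected on all 12 arrays.

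The arrays fall into 4 groups of 3, all of total RNA from transfected HEK293 cells after 48 h of culture. RPF1 Tet- cells carry an RPF-1 cDNA in the vector pTRE2puro and were grown without tetracycline (Tet), which switches the transcription factor RPF-1 on. RPF1 Tet+ cells are the same transfectants with Tet in the medium, so that the factor is not induced. Mock Tet- and Mock Tet+ cells are the Mock transfectants without and with Tet. Neither whether a line is 1 clone or a pool, nor whether the 3 replicates were grown separately, is stated in the labels. The p-values therefore cover the spread between these arrays, and that spread may be technical.

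Between 13568 and 14493 probes were detected per array. The arrays lay on 3 chips. RPF1 Tet- 2 and 3 shared the third chip, Mock Tet+ 1 and 2 shared the first, and the remaining 8 arrays were on the second. Comparisons that involve RPF1 cells are therefore also given with chip as a fixed block and, in part, on the second chip alone. There only 1 array of RPF1 Tet- and 1 of Mock Tet+ remain, and such an array is assumed to vary as the others do. Named genes outside the members are given without these checks. Of the 7 HEK293 marker genes with a probe, KRT8, KRT18, LIN28B, NEFL, NEFM and EYA1 were kept, and PAX2 was detected on 0 arrays. On induction EYA1 fell at -1.91 and LIN28B at -1.02, and KRT8 and KRT18 each rose at 0.35. Between the uninduced lines LIN28B was higher at 0.53 and NEFL lower at -0.64, and in RPF1 Tet- against Mock Tet- EYA1 (-1.31) and LIN28B (-0.49) were lower. On RPF1 Tet+ 3 and on RPF1 Tet- 2 several members stood above the other replicates of the group, so counts are also given without these arrays. Of 11 leukocyte markers with a probe, CD3D, CD3E, MS4A1, CD14 and HLA-DRA were detected on 0 arrays and 5 were kept.

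Interferons are secreted proteins that bind receptors on the cell surface, and Janus kinases then pass the signal on inside the cell. A complex that holds STAT2 and IRF9 binds the interferon-stimulated response element (ISRE) in the promoters of target genes, and the gamma-activated site (GAS) is the element of the interferon gamma response. The proteins made block viral entry, sense and degrade foreign RNA, and load peptides onto class I molecules. Many of these genes also have a basal level in cells that have met no interferon, set in part by the IRF factors.

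Promoters of 34 of the 44 members were matched by symbol in a RefSeq table of GRCh38.p14, each from 250 bases before to 50 bases after the gene's start. Those of 6 members that carry the results below are shown, to set beside their values the elements that interferon signalling acts through. IFITM2, IRF7 and IFIT2 had no promoter there, and those of other called members, such as IFI35, are not shown. Capitals mark the ISRE core (GAAA, any 2 bases, then GAAA) on either strand, which reads TTTC, any 2 bases, then TTTC from the other strand, and the GAS core TTCNNNGAA, which is its own reverse complement. Neighbouring cores can overlap and then form 1 run of capitals, and in IFITM1 a GAS core overlaps an ISRE core. The windows are IFITM1 at chr11:313790-314089 on the plus strand, IFITM3 at chr11:320811-321110 on the minus strand, IRF1 at chr5:132490724-132491023 on the minus strand, IFIH1 at chr2:162318635-162318934 on the minus strand, ISG15 at chr1:1013247-1013546 on the plus strand, and TAP1 at chr6:32853655-32853954 on the minus strand.
IFITM1: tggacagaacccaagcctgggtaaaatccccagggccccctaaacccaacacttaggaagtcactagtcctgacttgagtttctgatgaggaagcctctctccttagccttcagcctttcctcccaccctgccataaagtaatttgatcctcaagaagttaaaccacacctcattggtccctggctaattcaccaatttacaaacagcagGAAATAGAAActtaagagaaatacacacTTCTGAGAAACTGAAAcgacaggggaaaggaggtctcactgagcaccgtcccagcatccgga
IFITM3: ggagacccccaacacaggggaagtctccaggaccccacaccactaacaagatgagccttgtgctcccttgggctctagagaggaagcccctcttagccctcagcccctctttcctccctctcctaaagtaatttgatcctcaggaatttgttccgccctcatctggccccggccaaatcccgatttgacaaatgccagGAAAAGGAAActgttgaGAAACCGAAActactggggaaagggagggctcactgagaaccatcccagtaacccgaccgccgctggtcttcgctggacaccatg
IRF1: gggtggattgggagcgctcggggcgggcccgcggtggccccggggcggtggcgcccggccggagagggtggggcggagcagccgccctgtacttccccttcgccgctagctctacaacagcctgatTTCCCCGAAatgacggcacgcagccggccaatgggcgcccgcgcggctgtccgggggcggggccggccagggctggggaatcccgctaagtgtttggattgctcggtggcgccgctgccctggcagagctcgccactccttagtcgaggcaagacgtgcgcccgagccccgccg
IFIH1: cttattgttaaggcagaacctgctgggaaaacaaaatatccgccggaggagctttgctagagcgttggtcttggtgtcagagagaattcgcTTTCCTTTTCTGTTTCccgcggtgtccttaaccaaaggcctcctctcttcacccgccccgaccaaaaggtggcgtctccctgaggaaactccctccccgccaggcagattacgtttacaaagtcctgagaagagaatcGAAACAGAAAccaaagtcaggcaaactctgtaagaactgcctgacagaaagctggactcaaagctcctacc
ISG15: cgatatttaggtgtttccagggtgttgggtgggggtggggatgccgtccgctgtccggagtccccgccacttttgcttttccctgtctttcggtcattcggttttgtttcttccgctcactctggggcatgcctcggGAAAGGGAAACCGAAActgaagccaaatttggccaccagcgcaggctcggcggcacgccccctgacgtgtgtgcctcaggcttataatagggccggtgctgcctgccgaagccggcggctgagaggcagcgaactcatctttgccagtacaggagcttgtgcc
TAP1: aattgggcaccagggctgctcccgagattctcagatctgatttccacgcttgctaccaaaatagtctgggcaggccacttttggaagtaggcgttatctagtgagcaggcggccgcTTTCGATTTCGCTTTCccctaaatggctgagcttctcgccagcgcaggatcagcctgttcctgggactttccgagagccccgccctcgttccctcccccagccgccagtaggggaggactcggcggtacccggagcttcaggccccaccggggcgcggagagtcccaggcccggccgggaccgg

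The ISRE core stood in 21 of the 34 member promoters (61.8%), against 996 of the 27305 promoters of the table (3.65%). The GAS core stood in 8 of the 34 (23.5%), against 2152 of the 27305 (7.88%). The IRF1 window held a GAS core whose first base is 124 bases before the start, and no ISRE core. IFITM1 and IFITM3 held 2 ISRE cores each, the nearest 6 and 35 bases before the start. A match is a run of letters and not a measured binding site.

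The first comparison asks how the uninduced RPF1 line differs from the Mock line when both are kept in Tet. The IFITM membrane proteins, a pair of interferon regulatory factors and the RNA sensor IFIH1 were lower in the RPF1 line, and no member was called higher. Of the 35 members 8 were lower, 0 were higher and 27 did not pass, at an adjusted p under 0.05 in limma with Benjamini-Hochberg adjustment over all 13228 features. The members' share called was 22.9%, against 15.1% of all features in either direction, of which 7.62% were higher and 7.49% lower. At an unadjusted p under 0.05 the count of members was 15 (42.9%), against 29.6% of all features. The median difference over the members was -0.21 on the log2 scale, against 0.01 over all features, and the members ranged from -1.18 to 0.57. The 3 RPF1 Tet+ arrays lay all below the 3 Mock Tet+ arrays in 15 members and all above them in 2, where 16.7% and 17.5% of all features did so.

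**Figure D1:**
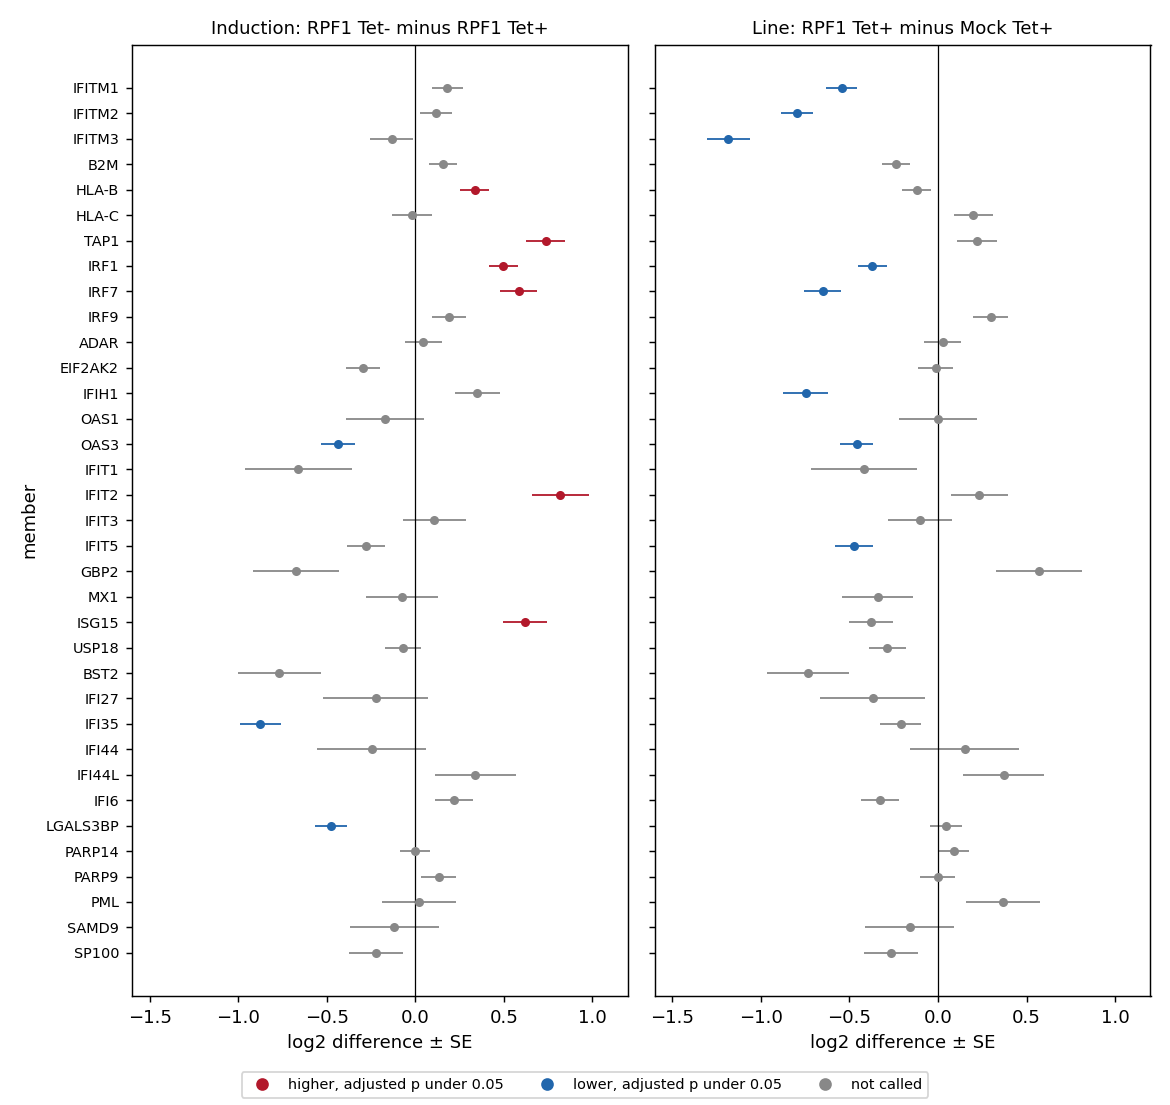
Log2 difference (x axis, bars ± SE of the limma fit) of each of the 35 members (y axis, ordered by role), for RPF1 Tet- minus RPF1 Tet+ on the left and RPF1 Tet+ minus Mock Tet+ on the right. On the left 6 members are called higher and 3 lower, on the right 8 are called lower, with IFITM3 at -1.18 the lowest.

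IFITM3, a membrane protein that blocks the fusion of incoming viruses in endosomes, had the largest difference between the lines among the members. Its log2 signal was 11.001, 10.87 and 10.72 on the RPF1 Tet+ arrays, against 12.21, 11.85 and 12.08 on the Mock Tet+ arrays. The groups did not overlap, and the Mock arrays were higher by more than the spread within either group. The difference was -1.18 (SE 0.12), or 2.27-fold lower in RPF1 Tet+ cells, at an adjusted p of 0.000266. Under the chip block it was -1.22 (adjusted p = 0.0168), where the second chip by itself gave an adjusted p of 0.0343.

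IFITM2 acts in the same compartments as IFITM3. Its log2 signal was 12.13, 12.19 and 12.004 in RPF1 Tet+ cells, against 12.93, 12.84 and 12.93 in Mock Tet+ cells, with no overlap. It was lower by a log2 difference of -0.79 (SE 0.09, adjusted p = 0.000518), and by -0.83 under the chip block (adjusted p = 0.023, or 0.0473 with the second chip alone). IFITM1, found mostly at the cell surface, had 10.49, 10.31 and 10.56 in RPF1 Tet+ cells, against 10.89, 11.06 and 11.04 in Mock Tet+ cells. Its groups did not overlap either, and the difference was -0.54 (SE 0.09, adjusted p = 0.00282). For IFITM1 the value with chip as a block was -0.58, at an adjusted p of 0.0591. These 3 genes are neighbours on chromosome 11 (GRCh38.p14, IFITM2 at 307816 to 309395, IFITM1 at 314040 to 315272 and IFITM3 at 319676 to 320860). They are paralogs of related sequence, and whether a probe also picks up signal from the others was not checked.

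**Figure D2:**
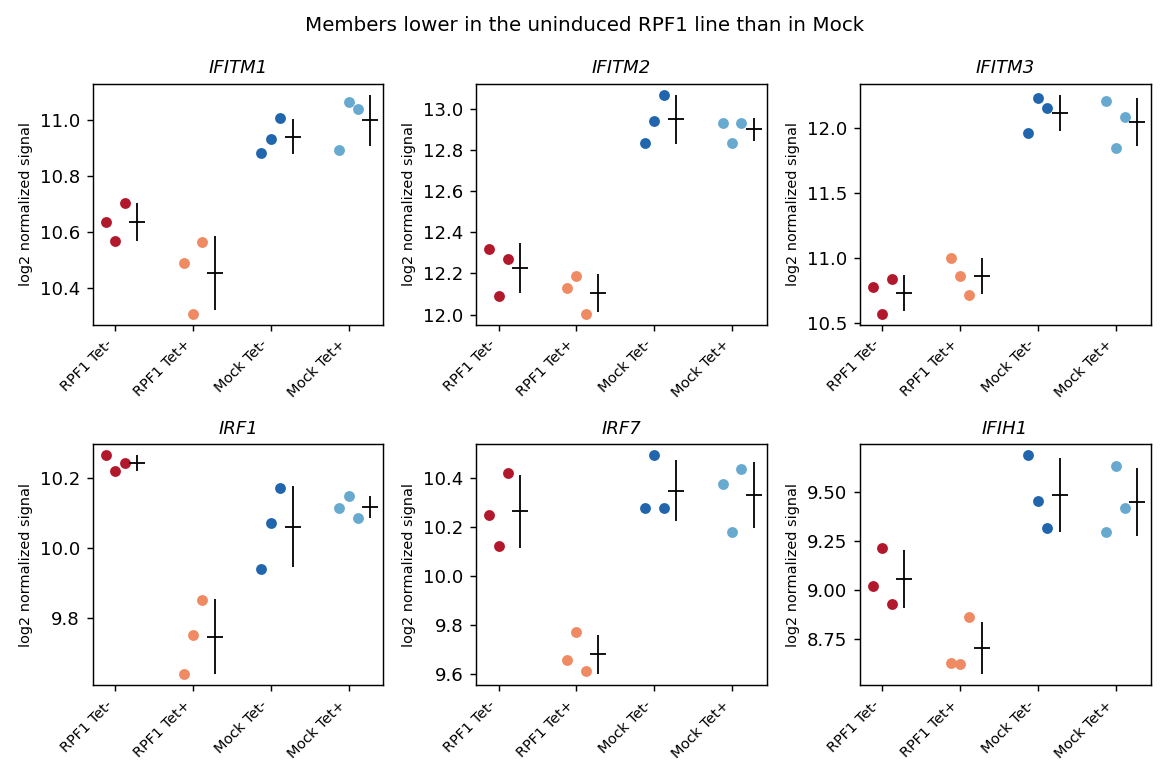
Log2 normalized signal (y axis, a scale of its own in each panel) of IFITM1, IFITM2, IFITM3, IRF1, IRF7 and IFIH1 on each array (points), with the mean and SD of 3 arrays beside them, in RPF1 Tet-, RPF1 Tet+, Mock Tet- and Mock Tet+ cells. Both RPF1 groups lie below both Mock groups for the IFITM genes and IFIH1, whereas for IRF1 and IRF7 the RPF1 Tet+ points alone lie below the rest.

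Among the transcription factors, IRF7, the factor through which type I interferon production is amplified, had 9.66, 9.77 and 9.61 in RPF1 Tet+ cells, against 10.38, 10.18 and 10.44 in Mock Tet+ cells. The groups were separate, and the difference was -0.65 (SE 0.10, adjusted p = 0.00283), with -0.76 at an adjusted p of 0.043 under the chip block and of 0.0584 when only the second chip was used. A second, dimmer IRF7 probe detected on 9 arrays gave 0.07 (SE 0.26, adjusted p = 0.903), so the 2 probes disagree. IRF1, a factor that keeps basal expression of interferon and class I genes, had 9.64, 9.75 and 9.85 in RPF1 Tet+ cells, against 10.11, 10.15 and 10.09 in Mock Tet+ cells. Its groups were separate, at -0.37 (SE 0.08, adjusted p = 0.0119), and with chip as a block it was -0.34 at an adjusted p of 0.178. IRF9, the DNA-binding partner of STAT2, stood the other way at 0.30 (SE 0.10), which did not pass at an adjusted p of 0.0626.

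Among the sensors of double-stranded RNA, IFIH1, the cytoplasmic helicase that detects long RNA duplexes, had 8.63, 8.62 and 8.86 in RPF1 Tet+ cells, against 9.30, 9.63 and 9.42 in Mock Tet+ cells. It was lower by a log2 difference of -0.75 (SE 0.13, adjusted p = 0.00356), with -0.72 and an adjusted p of 0.0895 under the chip block. OAS3, which makes the oligoadenylates that activate RNase L, had 10.04, 9.91 and 9.72 in RPF1 Tet+ cells, against 10.24, 10.40 and 10.40 in Mock Tet+ cells. Its difference was -0.46 (SE 0.09, adjusted p = 0.00861), and -0.51 under the chip block (adjusted p = 0.0853). Neither gene's groups overlapped. EIF2AK2, the kinase that halts translation on binding double-stranded RNA, gave -0.01 (95% confidence interval -0.23 to 0.20), and ADAR, the adenosine deaminase of such RNA, gave 0.03 (interval -0.20 to 0.25).

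Of the IFIT proteins, which bind foreign RNA, IFIT5 was lower in the uninduced RPF1 line. It had 8.37, 8.48 and 8.39 in RPF1 Tet+ cells, against 8.94, 8.83 and 8.90 in Mock Tet+ cells, a separation larger than the spread in either group. The difference was -0.47 (SE 0.11, adjusted p = 0.0136), with -0.49 and an adjusted p of 0.0939 under the chip block. IFIT1, IFIT2 and IFIT3 did not pass, at -0.42, 0.23 and -0.10. The 4 tested antigen presentation members lay between -0.24 for B2M, the light chain of class I molecules, and 0.22 for TAP1, a subunit of the peptide transporter, and none passed. BST2, which tethers budding virus particles to the cell, gave -0.74 at an adjusted p of 0.0541, with RPF1 Tet+ arrays at 8.55, 8.08 and 9.12, against 9.23, 9.53 and 9.19 in Mock Tet+ cells.

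With chip as a fixed block 3 of the 35 members were called lower between the lines (IFITM2, IFITM3 and IRF7). The second chip by itself gave 2 (IFITM2 and IFITM3). Of all features 296 were called with the block and 130 from the second chip, against 1999 without it. IFITM2 and IFITM3 were called lower under each of 26 alternative settings. Their log2 differences ranged from -0.83 to -0.74 for IFITM2 and from -1.28 to -1.10 for IFITM3.

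The next comparison asks what changed when RPF-1 was induced, RPF1 Tet- against RPF1 Tet+. It shares the RPF1 Tet+ arrays with the comparison of the lines, so a high or low RPF1 Tet+ value moves both, in opposite directions. The peptide transporter subunit TAP1, the class I heavy chain HLA-B, the factors IRF1 and IRF7, and IFIT2 and ISG15 rose, while IFI35, LGALS3BP and OAS3 fell. These are 6 higher, 3 lower and 26 not called. The members' share called was 25.7%, against 13.4% of all features, of which 6.69% were higher and 6.74% lower. The members' median was close to 0 (-0.00047), against -0.01 over all features, and they ranged from -0.88 to 0.82. At an unadjusted p under 0.05 the count was 15 (42.9%), against 28% of all features. The 3 Tet- arrays lay all above the 3 Tet+ arrays in 9 members and all below in 5, against 14.8% and 14.6% of all features.

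**Figure D3:**
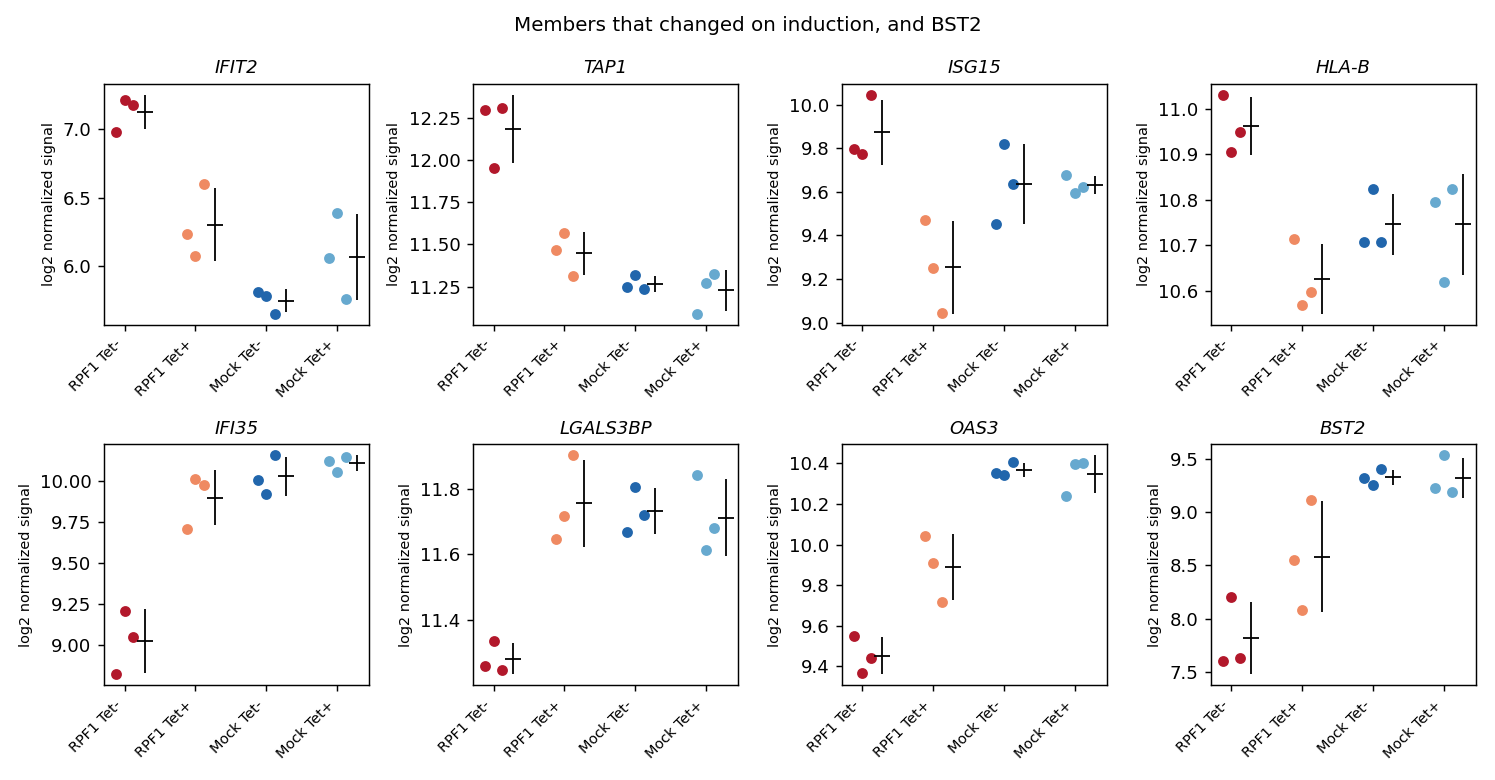
Log2 normalized signal (y axis, a scale of its own in each panel) of the other members called on induction, and of BST2, which was not (adjusted p = 0.0502). Points are arrays, with the mean and SD of 3 arrays beside them, in RPF1 Tet-, RPF1 Tet+, Mock Tet- and Mock Tet+ cells. IFIT2, TAP1, ISG15 and HLA-B are highest in RPF1 Tet- cells, and IFI35, LGALS3BP and OAS3 are lowest there.

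TAP1 had 12.30, 11.95 and 12.31 in RPF1 Tet- cells, against 11.46, 11.57 and 11.31 in RPF1 Tet+ cells. All 3 induced arrays were higher than any uninduced one, and higher than the Mock arrays, which lay between 11.09 and 11.32. The difference was 0.74 (SE 0.11), or 1.67-fold higher, at an adjusted p of 0.00115, and 0.85 under the chip block (adjusted p = 0.0217, or 0.021 with the second chip alone). HLA-B, which presents peptides at the cell surface, had 11.03, 10.91 and 10.95 in RPF1 Tet- cells, against 10.71, 10.57 and 10.60 in RPF1 Tet+ cells. It rose by a log2 difference of 0.34 (SE 0.08, adjusted p = 0.0195), with no overlap, and gave 0.41 at an adjusted p of 0.119 under the chip block. B2M gave 0.16 (interval -0.02 to 0.33) and HLA-C -0.02 (interval -0.26 to 0.23), and neither passed. HLA-B and HLA-C are paralogs of related sequence, so signal may be shared between their probes, which was not checked.

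The factors IRF1 and IRF7, both lower in the uninduced line, rose on induction. IRF1 had 10.27, 10.22 and 10.24 in RPF1 Tet- cells, above each of the RPF1 Tet+ arrays given before. The difference was 0.50 (SE 0.08, adjusted p = 0.00208), and 0.52 under the chip block (adjusted p = 0.0662). IRF7 had 10.25, 10.12 and 10.42 in RPF1 Tet- cells, again above each RPF1 Tet+ array, at 0.59 (SE 0.10, adjusted p = 0.00357) and, under the chip block, 0.57 (adjusted p = 0.0943). The dimmer IRF7 probe gave 0.22 (SE 0.26, adjusted p = 0.646). IRF9 gave 0.19 (adjusted p = 0.231).

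ISG15, the ubiquitin-like protein conjugated to others during the response, had 9.80, 9.78 and 10.05 in RPF1 Tet- cells, against 9.47, 9.25 and 9.04 in RPF1 Tet+ cells. The groups were separate, at 0.62 (SE 0.13, adjusted p = 0.00758), with 0.54 and an adjusted p of 0.191 under the chip block. USP18, the protease that removes ISG15 from its targets, gave -0.07 (interval -0.30 to 0.16). IFIT2 was near the detection limit. It had 6.98, 7.21 and 7.18 in RPF1 Tet- cells, where it was detected on 3 arrays, against 6.24, 6.07 and 6.60 in RPF1 Tet+ cells, where it was detected on 2. It rose by a log2 difference of 0.82 (SE 0.16, adjusted p = 0.0066), with 0.68 and an adjusted p of 0.116 under the chip block. With the authors' processed values, which have no background subtracted, the difference was 0.36 (adjusted p = 0.00817).

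IFI35, a leucine zipper protein that binds its partner NMI, fell furthest among the members called. It had 8.82, 9.20 and 9.05 in RPF1 Tet- cells, against 9.70, 10.01 and 9.98 in RPF1 Tet+ cells, and the Mock arrays lay near the RPF1 Tet+ values, between 9.92 and 10.16. The difference was -0.88 (SE 0.12), or 1.83-fold lower, at an adjusted p of 0.000503, and -1.08 under the chip block (adjusted p = 0.00593, or 0.0189 with the second chip alone). LGALS3BP, a secreted glycoprotein that binds galectins, had 11.26, 11.34 and 11.25 in RPF1 Tet- cells, against 11.65, 11.72 and 11.90 in RPF1 Tet+ cells. It fell by 0.47 on the log2 scale (SE 0.09, adjusted p = 0.00517), with -0.50 and an adjusted p of 0.107 under the chip block.

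OAS3 had 9.55, 9.37 and 9.44 in RPF1 Tet- cells, below every RPF1 Tet+ array, which in turn lay below every Mock Tet+ array. Its difference on induction was -0.44 (SE 0.09, adjusted p = 0.0105), and -0.34 under the chip block (adjusted p = 0.263). OAS3 was the 1 member called lower both on induction and between the lines. BST2 had 7.61, 8.20 and 7.63 in RPF1 Tet- cells, which overlap its RPF1 Tet+ values, and a difference of -0.77 (SE 0.23) that did not pass. Under the chip block 2 members were called on induction, TAP1 and IFI35. The second chip alone gives the same differences by design, so it is not a further check. Of all features 419 were called with the block, against 1776 without it. TAP1 and IFI35 were called under each of 26 alternative settings, with log2 differences from 0.67 to 0.85 and from -1.08 to -0.72.

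The members called lower between the lines can be set side by side with their values on induction, without a test of how they differ from each other. IRF1 and IRF7 were lower in the uninduced line (-0.37 and -0.65) and higher on induction (0.50 and 0.59). The IFITM genes, IFIH1 and IFIT5 were lower in the uninduced line and were not called on induction, where IFITM3 gave -0.13 (interval -0.40 to 0.13), IFITM2 0.12 (interval -0.08 to 0.32), IFITM1 0.18 (interval -0.01 to 0.37), IFIH1 0.35 (interval 0.07 to 0.63) and IFIT5 -0.28 (interval -0.52 to -0.04). OAS3 was lower in both. Under the chip block none of these 8 was called on induction, and IFITM2, IFITM3 and IRF7 stayed lower between the lines. The 6 other members called on induction were not called between the lines, where TAP1 gave 0.22, HLA-B -0.12, IFIT2 0.23, ISG15 -0.38, IFI35 -0.21 and LGALS3BP 0.04.

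The induced cells can also be set against Mock cells grown without Tet, a comparison that shares no array with that of the lines in Tet. It shares the RPF1 Tet- arrays with the induction comparison, so a call in both is not a separate result. All comparisons share 1 estimate of the spread. RPF1 Tet- cells had lower IFITM, OAS3, IFIT5, IFI35 and BST2 and higher TAP1, IFIT2, IRF9 and HLA-C. Of the 35 members 4 were higher and 12 lower, a share of 45.7%, against 31.3% of all features, 15.8% higher and 15.5% lower. The members' median was -0.10, and those other than IFIT2, for which only a bound is given, ranged from -1.51 to 0.92. All 3 RPF1 Tet- arrays lay above the 3 Mock Tet- arrays in 6 members and below them in 15, against 22.7% and 22.3% of all features.

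**Figure D4:**
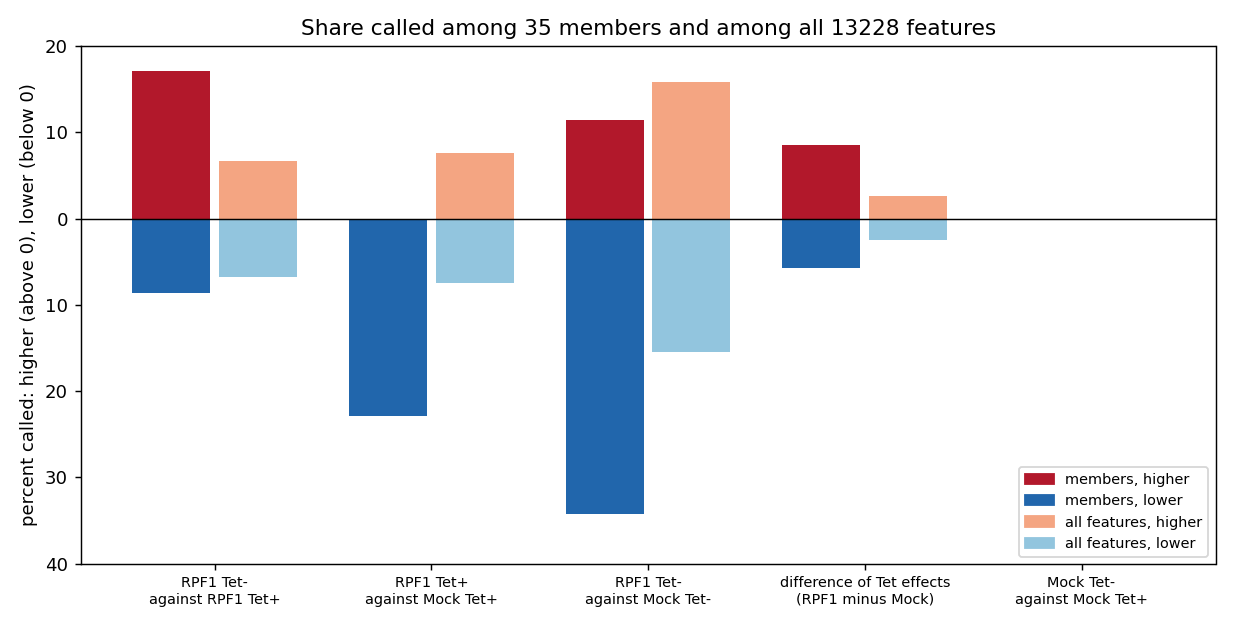
Percent of the 35 members and of all 13228 features called at an adjusted p under 0.05 in each comparison (x axis), with the share called higher above 0 and the share called lower below 0 (y axis). The members' bars are longest below 0 where RPF1 Tet- is set against Mock Tet- (12 lower) and in the comparison of the lines in Tet (8 lower), and there are no bars for Mock Tet- against Mock Tet+.

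IFITM3 had 10.78, 10.57 and 10.84 in RPF1 Tet- cells, against 11.96, 12.23 and 12.16 in Mock Tet- cells. It was thus low in RPF1 cells with and without Tet, at -1.39 here (SE 0.12), or 2.62-fold lower, with an adjusted p of 1.72e-05. IFITM2 had 12.32, 12.09 and 12.27 in RPF1 Tet- cells, against 12.84, 12.94 and 13.07 in Mock Tet- cells, a difference of -0.72 (adjusted p = 0.000208). IFITM1 had 10.64, 10.57 and 10.70 in RPF1 Tet- cells, against 10.88, 10.93 and 11.01 in Mock Tet- cells. Its groups were separate at -0.30 (adjusted p = 0.0214, and 0.195 under the chip block).

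BST2 had the lowest difference of all members, at -1.51 (SE 0.23, adjusted p = 0.000711). Its RPF1 Tet- arrays at 7.61, 8.20 and 7.63 stood below the Mock Tet- arrays at 9.32, 9.26 and 9.40. IFIT1, which binds viral RNA, had 7.85, 8.98 and 8.17 in RPF1 Tet- cells, against 9.56, 9.34 and 9.27 in Mock Tet- cells. The groups were separate, the RPF1 Tet- arrays were widely spread, and the difference was -1.06 (SE 0.30, adjusted p = 0.0211). OAS3 gave -0.91 (adjusted p = 5.7e-05), IFI35 -1.01 (adjusted p = 0.00012) and IFIT5 -0.76 (adjusted p = 0.000425). USP18 gave -0.49 (adjusted p = 0.00423), LGALS3BP -0.45 and IFIH1 -0.43. SP100, a protein of nuclear bodies, gave -0.46 (adjusted p = 0.0397), but it was called in 13 of 25 alternative settings, with values from -0.85 to -0.20. USP18 gave -0.27 with the authors' processed values and was called there too.

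On the higher side, TAP1 gave 0.92 (SE 0.11), or 1.89-fold higher, at an adjusted p of 0.000165. IFIT2 was not detected on any Mock Tet- array, where it measured 5.81, 5.78 and 5.66, against 6.98, 7.21 and 7.18 in RPF1 Tet- cells. Against the lowest signal detected on each array it was at least 2.01-fold higher in RPF1 Tet- cells. The limma fit, which uses the undetected Mock Tet- signals, called it higher at an adjusted p of 0.00014. That p does not test the bound. This bound sets the mean of the RPF1 Tet- arrays against the lowest signal among the probes detected on each Mock Tet- array, or the probe's own signal where that was higher.

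IRF9 had 8.99, 9.28 and 9.26 in RPF1 Tet- cells, against 8.65, 8.56 and 8.65 in Mock Tet- cells, at 0.56 (adjusted p = 0.00157, and 0.0588 under the chip block). HLA-C gave 0.32 (SE 0.11, adjusted p = 0.0466), and was called in 9 of 26 alternative settings. IRF1 and IRF7, low in the uninduced line, stood at 0.18 (interval 0.00 to 0.36, adjusted p = 0.11) and -0.08 (interval -0.31 to 0.15, adjusted p = 0.577) here. Under the chip block HLA-C, IRF9, LGALS3BP, IFIH1 and IFITM1 were no longer called, with adjusted p-values of 0.138, 0.0588, 0.0669, 0.172 and 0.195 in that order. The other 11 were still called. Of all features 1255 (9.49%) were called with the block, against 31.3% without it.

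Removal of Tet from Mock cells changed none of the members at the threshold. In limma, 0 of the 35 members and 0% of all features were called, and 0 members had an unadjusted p under 0.05. The members ranged from -0.51 for IFI27 to 0.18 for PML, with a median of 0.00. The 3 Mock Tet- arrays lay all below the 3 Mock Tet+ arrays in 1 member, IFI27, and all above in 0, against 3.07% and 3.82% of all features. IFI27 was not detected on any Mock Tet- array. For IFITM3 the interval of the Tet difference in Mock cells was -0.19 to 0.33, for TAP1 -0.20 to 0.28 and for IRF1 -0.23 to 0.12.

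Whether removing Tet acted differently in the RPF1 line than in the Mock line was tested as the difference between these Tet effects, with RPF1 minus Mock. TAP1 (0.70, SE 0.16, adjusted p = 0.0269) and IRF1 (0.55, SE 0.12, adjusted p = 0.019) were higher. IFIT2 was called higher too (adjusted p = 0.016), but it was detected on 0 Mock Tet- arrays and 1 Mock Tet+ array, so its Mock side is signal at background and no size is given. IFI35 (-0.80, SE 0.16, adjusted p = 0.0173) and LGALS3BP (-0.49, SE 0.13, adjusted p = 0.0477) were lower. These 5 members, 14.3% of 35, stand beside 5.13% of all features, with 2.6% higher and 2.53% lower. IRF7 (0.57, adjusted p = 0.0508), ISG15 (0.61, adjusted p = 0.0773) and OAS3 (-0.46, adjusted p = 0.0797) did not pass. A fixed block for chip left 0 members called, with an adjusted p of 0.0986 for IFI35, 0.135 for TAP1 and 0.278 for IRF1.

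**Figure D5:**
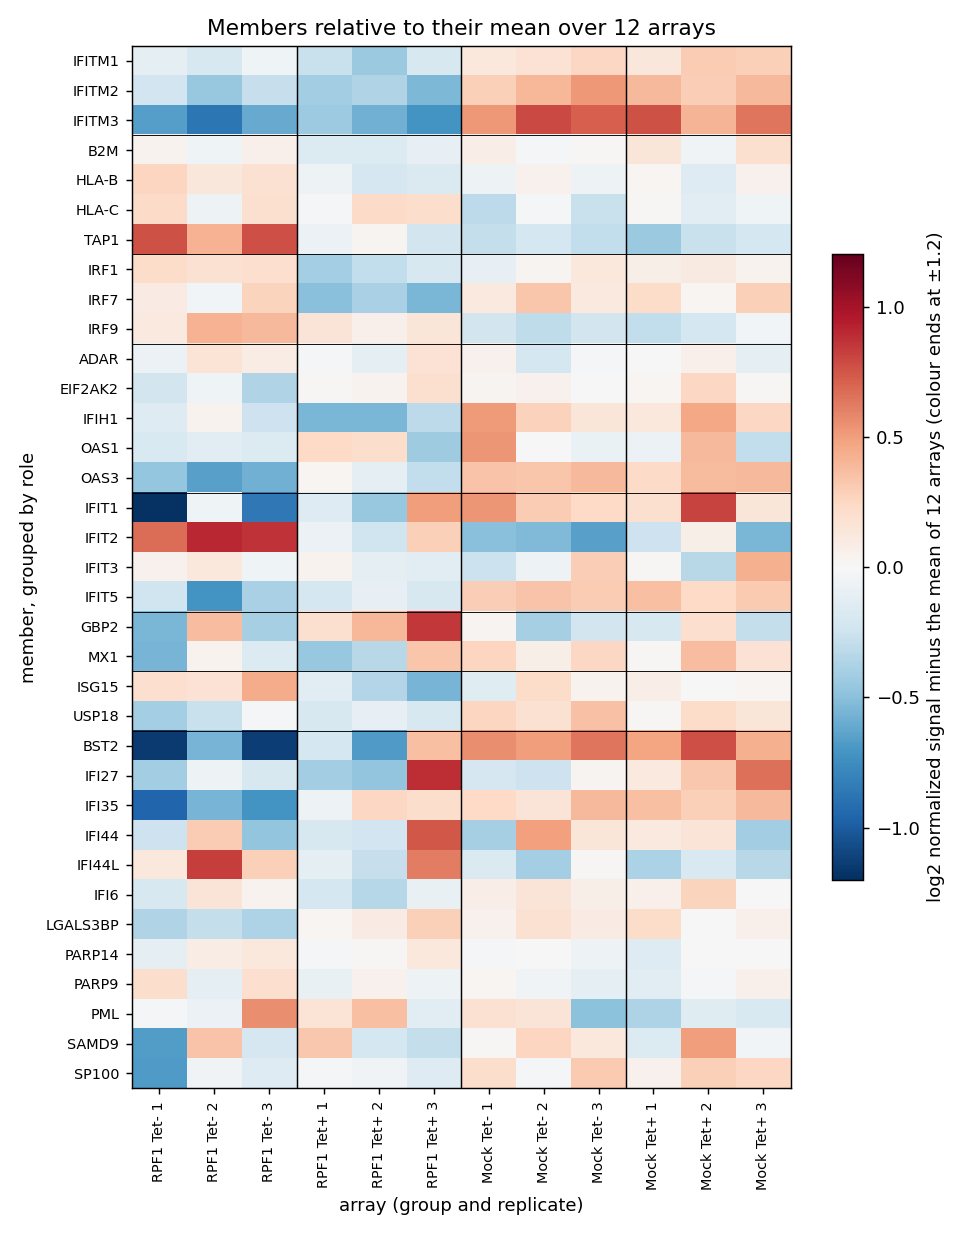
Log2 normalized signal of each member (rows, grouped by role) on each of the 12 arrays (columns, in the order RPF1 Tet-, RPF1 Tet+, Mock Tet-, Mock Tet+), minus the member's mean over the 12 arrays, in colour from blue (lower) to red (higher). The IFITM rows are blue over the 6 RPF1 arrays and red over the 6 Mock arrays, and the rows of IFIT1, GBP2, BST2 and IFI44L change between arrays of 1 group.

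Signal depends on the probe, so levels are not compared between members. B2M averaged 14.35 ± 0.06 in RPF1 Tet- cells, 14.20 ± 0.04 in RPF1 Tet+ cells, 14.36 ± 0.05 in Mock Tet- cells and 14.44 ± 0.12 in Mock Tet+ cells (SD, n = 3 each), and all 3 RPF1 Tet+ arrays were below those of the other groups. In all 7 members were detected on only some of the 12 arrays, namely IFI27, IFI44, IFIT2, IFIT3, OAS1, PML and SAMD9. With all 12 arrays and the settings used here, IFIT2 was the 1 of these called. PARP9 and PARP14, which add ADP-ribose to proteins, lay between -0.029 and 0.14 in all 5 comparisons.

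In 2 RPF1 arrays a set of members stood above the other replicates of the group. IFIT1, GBP2 (a GTPase of the guanylate-binding family), MX1 (a dynamin-like GTPase that traps viral nucleocapsids), BST2 and IFI44L were each highest on RPF1 Tet+ 3 among the RPF1 Tet+ arrays, with IFIT1 at 9.53 there against 8.88 and 8.58. The same 5 were highest on RPF1 Tet- 2 among the RPF1 Tet- arrays, with IFIT1 at 8.98 there against 7.85 and 8.17. Of the 35 members 7 stood at least 0.4 above both other arrays on RPF1 Tet+ 3 and 6 on RPF1 Tet- 2, where 4.69% and 6.22% of all features did so. The cause was not tested. Without these 2 arrays, an alternative chosen after seeing the data, 10 members were called on induction (5 higher and 5 lower, BST2 and GBP2 added and HLA-B lost at an adjusted p of 0.0571) and 12 between the lines, all lower, with BST2, IFI27, IFI6 and MX1 added. In RPF1 Tet- against Mock Tet- 19 were then called (5 higher and 14 lower), and 5 where the Tet effects were compared. Of all features these fits called 10.2% on induction, 14.4% between the lines, 29.1% in RPF1 Tet- against Mock Tet- and 4.91% for the Tet effects. The 2 arrays were left out because members stood high on them, so lower RPF1 values of such members follow from that choice. No conclusion is drawn from the added lower calls. IFI27 was detected on 1 RPF1 Tet+ array, with 6.94 on RPF1 Tet+ 3 against 5.64 and 5.58 on the others. Without RPF1 Tet+ 3 its RPF1 Tet+ signal is at background.

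Promoter elements can be set beside these calls as a description. Of the 8 members lower between the lines 6 had a promoter in the table and 5 of these held the ISRE core, against 15 of the 23 tested members not called there. Of the 4 members that rose on induction and had a promoter 2 held it, as did 2 of the 3 that fell. Among the tested members not called on induction 16 of 22 held it. IRF1, which rose, and IFI35, which fell, each held a GAS core and no ISRE core.

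Upstream of these genes, the interferon receptors and the Janus kinase pathway were detected, and their ligands were not. Of 11 interferon genes with a probe 10 were detected on 0 arrays, and IFNG on 1. Of 15 tested genes for receptors, Janus kinases, STATs and their inhibitors 2 rose on induction and 0 fell, JAK2 at 0.33 (adjusted p = 0.0371) and IFNGR1, a chain of the interferon gamma receptor, at 0.29 (adjusted p = 0.0175). Between the lines 2 were higher, IFNGR1 at 0.38 and IFNAR2 at 0.30, and 2 lower, JAK2 at -0.35 and TYK2 at -0.31. Of all features 6.69% rose and 6.74% fell on induction, and 7.62% were higher and 7.49% lower between the lines. The counts in these short lists are to be read beside those shares, and the calls were made without the chip block. Of 10 tested nucleic acid sensors and adaptors, MAVS, the mitochondrial adaptor of IFIH1, rose on induction at 0.47 (adjusted p = 0.0383). Between the lines the RNA receptor TLR3 was lower at -0.73 (adjusted p = 0.0253), as was its adaptor TICAM1 at -0.61 (adjusted p = 0.000578).

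Of 23 tested interferon-stimulated genes outside the group 0 rose and 4 fell on induction, where 6.69% and 6.74% of all features did so. HERC6, a ubiquitin ligase of the HERC family, fell by 1.28 on the log2 scale (SE 0.09, adjusted p = 5.26e-06), and SP110, NMI and TRIM5 gave -0.46, -0.43 and -0.30. Between the lines 5 of the 23 were lower and 1 higher, against 7.49% and 7.62% of all features. The higher one was EPSTI1 at 0.88 (adjusted p = 0.00175). The 3 lowest were PARP10 at -0.79, the antibody receptor TRIM21 at -0.55 and UBE2L6, the conjugating enzyme for ISG15, at -0.53. Of 17 other antigen presentation genes 0 rose and 1 fell on induction, the peptide-trimming protease ERAP2 at -0.58 (adjusted p = 0.00187). Between the lines HLA-F was higher at 0.44 and RFXANK lower at -0.31. The 14 constitutive proteasome subunits had 0 calls in either direction on induction, and between the lines PSMB1 was higher at 0.35 and PSMA2 lower at -0.54.

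Some markers of other cell types moved with the same contrasts. The summed signal of the 11 leukocyte markers with a probe was 1885 to 2023 in RPF1 Tet- cells, 1438 to 1487 in RPF1 Tet+ cells, 1341 to 1394 in Mock Tet- cells and 1276 to 1377 in Mock Tet+ cells. Of the 5 kept, CD68 and LCP1 rose on induction, at 0.60 and 0.55, and between the lines CD68 was higher at 0.63 and CORO1A lower at -0.93. The defining markers CD3D, CD3E, MS4A1 and CD14 were detected on 0 arrays. The 7 fibroblast markers, of which 3 were kept, summed to 1122 to 1433 in RPF1 Tet- cells, 2190 to 3348 in RPF1 Tet+ cells, 2060 to 2361 in Mock Tet- cells and 2160 to 2378 in Mock Tet+ cells. COL3A1 and LUM fell on induction at -2.18 and -1.50, and COL1A1 rose at 0.42. VWF of the endothelial list fell on induction at -0.34 and was higher between the lines at 0.59. The 6 endothelial markers, of which 3 were kept, summed to 629 to 691 in RPF1 Tet- cells and 682 to 828 in RPF1 Tet+ cells, against 601 to 669 in Mock Tet- and 559 to 599 in Mock Tet+ cells. The part of these genes in the results was not tested, and in bulk RNA fewer cells with a transcript and less of it per cell cannot be told apart.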

How the data were processed

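Total RNA from 12 samples was measured on Illumina bead arrays of 22184 probes. BeadStudio was the reading software, per the submitters' processing notes. The deposited intensity values and the detection p-values of each probe are not normalized, per the file headers. The authors' processed intensity values differed from a quantile normalization of the unprocessed ones by a median of 0.00626%, and served as an alternative.

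In limma 3.58.1 (R 4.3.3) signals were corrected by normexp with an offset of 16, its background parameters being estimated through the detection p-values, then quantile normalized and taken to log2. Probes detected (p under 0.05) on 3 or more arrays, 14752 in number, were kept, and the brightest kept probe stood for a symbol, which left 13228 features. The fit had 1 coefficient for each of the 4 groups, with 8 residual degrees of freedom and a prior of 3.29, and no block. Benjamini-Hochberg adjustment ran over all features, and calls were made at an adjusted p under 0.05. Standard errors and 95% intervals are those of this fit. The number of arrays limits the precision. Tested on simulated data for RPF1 Tet- against RPF1 Tet+ over 13228 features, the fit recovered 52.2%, 85.1% and 100% of changes of 0.5, 1 and 2 on the log2 scale, with 6 false calls. For RPF1 Tet+ against Mock Tet+ it recovered 40.3%, 88.1% and 98.5%, with 8 false calls.

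Of all probes 19715 had 1 gene symbol and 2469 had none. No member was found under an older symbol, and 20 gene identifiers were not in the RefSeq table. The sources used here give no build for the probe positions, and coordinates are those of genes in GRCh38.p14.

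Every member could be named, those called in any comparison with their values, and of each other gene list up to 4 called genes with the largest change between the lines and on induction. The members and lists were chosen with earlier results of these data known. Alternatives were the authors' values, other background, scaling and filter settings, all kept probes, and only the 6 arrays compared. The rest were an intensity trend with a robust prior, chip as a block or the second chip alone, a replicate block, and each array left out. Same-numbered arrays of compared groups had correlations of their deviations from -0.40 to 0.25, so numbers do not pair the samples. The level of the transfected factor is not reported here.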

Additional observations from a re-analysis of the deposited data

Results flagged for a closer look

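The effect of Tet removal differed between the RPF1 line and the Mock line for 5 members, by the test of that difference in limma with adjustment over all features. The difference, RPF1 minus Mock, was 0.70 for TAP1 (SE 0.16, adjusted p = 0.0269) and 0.55 for IRF1 (SE 0.12, adjusted p = 0.019). The fitted value for IFIT2 was 1.14 (SE 0.23, adjusted p = 0.016), which is not a measured size, since IFIT2 was detected on 0 Mock Tet- arrays and 1 Mock Tet+ array. It was 0.68 under the chip block and 0.49 with the authors' processed values. It was -0.80 for IFI35 (SE 0.16, adjusted p = 0.0173) and -0.49 for LGALS3BP (SE 0.13, adjusted p = 0.0477). For each of the 5 the 3 RPF1 Tet- arrays did not overlap the 3 RPF1 Tet+ arrays, while for the 4 other than IFIT2 the change in Mock cells lay between -0.08 for IFI35 and 0.04 for TAP1. LGALS3BP was called in 6 of 25 alternative settings, TAP1 in 13 of 25, IRF1 in 22 of 25, IFIT2 in 22 of 24 and IFI35 in 23 of 25. With chip as a block none of the 5 was called. The cause was not tested.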

How the results depend on the processing

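No single member reversed its direction under any setting in which it was called. Members called on induction numbered 9 and became 2 with chip as a fixed block and 2 on the second chip only. Between the lines 8 became 3 with chip as a fixed block, 2 on the second chip only, and 13 with a detection p under 0.01 on all 12 arrays, which left 27 members tested (12 lower, and 1 higher, IRF9) beside 20.7% of all features called. For the difference of the Tet effects 5 became 0 with chip as a block, 0 on the second chip and 3 with a replicate block, and its median of 0.071 over the members turned to -0.088 both with the fixed chip block and on the second chip only. The median for RPF1 Tet- against Mock Tet- was -0.10, and -0.20 with median scaling, -0.29 both with the fixed chip block and on the second chip, and -0.27 without RPF1 Tet+ 3 and RPF1 Tet- 2. Chips and groups overlap in part, and fewer arrays carry each of those fits. The fixed chip block and the second chip give the same differences by design, so their equal medians are 1 result. The cause was not tested. With 1 array left out at a time, calls ranged from 8 to 13 on induction (13 without RPF1 Tet- 2), 7 to 11 between the lines, 12 to 16 for RPF1 Tet- against Mock Tet-, 3 to 5 for the difference of Tet effects and 0 to 0 in Mock cells. Calls over all features ranged from 1132 to 1696, 1092 to 2393, 2989 to 4251, 417 to 663 and 0 to 0 in the same order. Medians ranged from -0.055 to 0.081, -0.22 to -0.13, -0.27 to -0.065, -0.042 to 0.12 and -0.036 to 0.0095 in the same order. The median of the difference was -0.042 without Mock Tet+ 3, and that of RPF1 Tet- against Mock Tet- was -0.27 without RPF1 Tet- 2. Over all features, 1776 calls on induction became 419 with the fixed chip block, 363 on the second chip, 971 with only the 6 arrays compared, 1132 without RPF1 Tet+ 1 and 1156 without RPF1 Tet- 3. Between the lines 1999 became 296, 130, 1092 without Mock Tet+ 1, 1148 without Mock Tet+ 3 and 1324 without RPF1 Tet+ 1. For RPF1 Tet- against Mock Tet- 4135 became 1255 and 1119, and for the difference 679 became 98, 75, 427 with the replicate block and 417 to 423 without RPF1 Tet- 3, RPF1 Tet+ 1 or Mock Tet- 3. Whether replicate numbers pair the samples is not known. With the replicate block 9 members were called on induction, 8 between the lines and 14 for RPF1 Tet- against Mock Tet-. These counts are given without the shares of all features, and nothing is read from them. Members near background, such as IFIT2, rest on few detected arrays.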

Other observations

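Apart from the 2 RPF1 arrays described above, 1 Mock array also held the highest values of many members. Mock Tet+ 2 was the highest of its group for 18 of the 35 members (51.4%), against 37.4% of all features. It stood at least 0.4 above both others for 3 of the 35, where 3.01% of all features did so. Among these were IFIT1, at 9.84 there against 9.22 and 9.18. RPF1 Tet- 2 was the highest of its group for 19 members (54.3%), against 40.1% of all features, and RPF1 Tet+ 3 for 17 (48.6%), against 38.7%.

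Among the members not called, IFI6, a protein of the endoplasmic reticulum, had a log2 signal of 12.51 ± 0.17 in RPF1 Tet- cells, 12.29 ± 0.13 in RPF1 Tet+ cells, 12.61 ± 0.05 in Mock Tet- cells and 12.61 ± 0.14 in Mock Tet+ cells (SD, n = 3 each), and was not called in the fit reported here. With the authors' processed values it was called lower between the lines (-0.32, adjusted p = 0.0349). EIF2AK2 lay below its RPF1 Tet+ values on all 3 RPF1 Tet- arrays (12.47, 12.64 and 12.34, against 12.71, 12.73 and 12.89), at -0.29 (adjusted p = 0.0708).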
